A study of Sus scrofa with 12 samples.

Results

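Chromatin accessibility was examined at 9 genes through which insulin drives glucose into muscle: INSR, IRS1, IRS2, PIK3R1, AKT2, SLC2A4, TBC1D1, TBC1D4 and HK2. ATAC-seq, in which a transposase cuts open DNA so that reads accumulate where chromatin is accessible, was performed on the longissimus dorsi, the long back muscle, of 3 Duroc (lean) and 3 Luchuan (fat) boars aged 180 days. All boars were raised under the same feeding conditions and fasted overnight before slaughter, and no treatment or transgene separated the groups. Open regions were assigned to a gene when their midpoint lay in its body or within 10 kb of it in Sscrofa11.1. This gave 227 of the 140081 regions of the deposited table, made from 378 of its 217213 peak intervals, and all 9 genes had regions. The table holds 1 read count per interval and breed and none per boar. A count was taken to combine all 3 animals of its breed, an assumption that the column names do not settle, so no value here has a standard deviation between animals and no test between breeds was possible. The ranges given with ratios are 95% intervals, computed by the Clopper-Pearson method from the reads of both breeds, and cover counting error only. PCR copies of a read are not independent molecules, so even these are too narrow.

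Insulin binds the insulin receptor (INSR), a tyrosine kinase that phosphorylates the docking proteins IRS1 and IRS2. These recruit phosphoinositide 3-kinase through its regulatory subunit PIK3R1, and the lipid it makes activates the kinase AKT2. AKT2 phosphorylates TBC1D4 and TBC1D1, a pair of related proteins that hold Rab GTPases inactive, and the vesicles carrying the glucose transporter GLUT4 (SLC2A4) then move to the surface of the muscle fiber. TBC1D1 is also a target of AMP-activated kinase during contraction. Hexokinase 2 (HK2) phosphorylates the glucose that enters and so keeps it in the cell. Skeletal muscle takes up much of the glucose cleared after a meal by this route.

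Both breeds had open chromatin at all 9 genes, and after scaling the summed accessibility of 8 of them was close between the breeds. TBC1D1 was the exception. Its regions held 2752 Duroc reads and 2568 Luchuan reads, which is 3789 after scaling, so its accessibility was 37.7% higher in Luchuan (log2 ratio 0.46, interval 0.38 to 0.54). Size and sign depended on the scaling. With the total clean reads of the libraries in its place the ratio of TBC1D1 was 0.27, and without scaling -0.10. Without scaling 7 of the 9 genes were at -0.5 or less, so TBC1D1 was then the closest to equal. HK2 (log2 ratio -0.24, -0.34 to -0.15) and INSR (-0.17, -0.23 to -0.11) leaned towards Duroc. With clean reads these became -0.44 and -0.36, without scaling -0.80 and -0.73, and for HK2 the common peaks alone gave -0.14 and a window of 2 kb around the gene -0.15. TBC1D4 had nearly equal sums in both breeds, although the ratio was lower in its lower-coordinate part than in its upper part. All log2 ratios are of Luchuan against Duroc and are positive where Luchuan was higher. Luchuan counts were first multiplied by 1.48, the factor that centres the regions common to both breeds on 0, because the Duroc counts were larger across the whole table. They sum to 20759894 over all regions for Duroc, with a median of 61 per region, and to 13746020 for Luchuan, with a median of 38.

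None of the 9 genes reached a log2 ratio of 0.5 in either direction. Among all 15822 protein-coding genes with at least 100 reads, 3.17% were at 0.5 or more and 3.96% at -0.5 or less. The median ratio of the 9 genes was -0.010, beside -0.015 for all these genes. TBC1D1 lay at the 96.3 percentile of all genes and at the 98.9 percentile of the 11724 genes with at least 1000 reads, a number that all 9 genes passed. HK2 lay at the 14.6 percentile and INSR at 22.4, and the other 6 genes lay between 37.1 and 75.8.

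**Figure D1:**
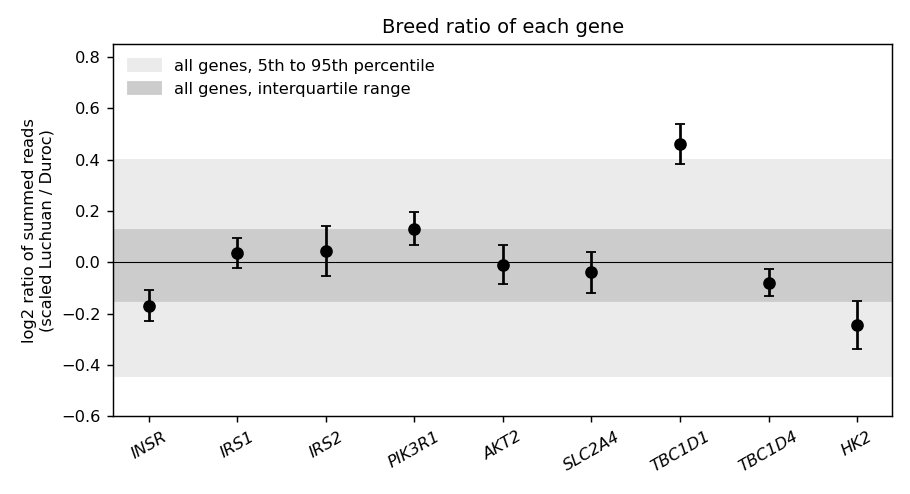
Log2 ratio of the summed scaled Luchuan reads to the summed Duroc reads of each gene (points), with 95% intervals for counting error (bars). Dark and light grey bands give the interquartile range and the 5th to 95th percentile of all 15822 genes; TBC1D1, at 0.46, is the one gene above the light band.

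The level of accessibility differed far more between genes than between breeds. Per kb of gene window, which is the gene body with 10 kb on both sides, SLC2A4 was the highest with 123.5 Duroc reads and 120.1 scaled Luchuan reads. IRS1 followed with 72.9 and 74.7. IRS2, PIK3R1 and AKT2 came next with 42.8, 42.4 and 41.1 Duroc reads per kb, and their counting intervals overlapped in Duroc. INSR had 34.99 and 31.1, TBC1D4 had 31.9 and 30.2, and HK2 had 27.0 and 22.8. TBC1D1 was the lowest in both breeds, with 11.5 Duroc and 15.8 scaled Luchuan reads per kb, and its intervals in the breeds did not overlap (11.0 to 11.9 against 15.2 to 16.4). The median of all genes was 19.98 Duroc reads per kb, so TBC1D1 was the only one of the 9 below it. Windows of short genes consist mostly of the surroundings of gene ends, where open regions gather, and the 26.2 kb window of SLC2A4 is the shortest of the 9. The 9 genes had 12.1 to 39.3 regions per 100 kb of window, above the median of 10.6 over all genes.

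**Figure D2:**
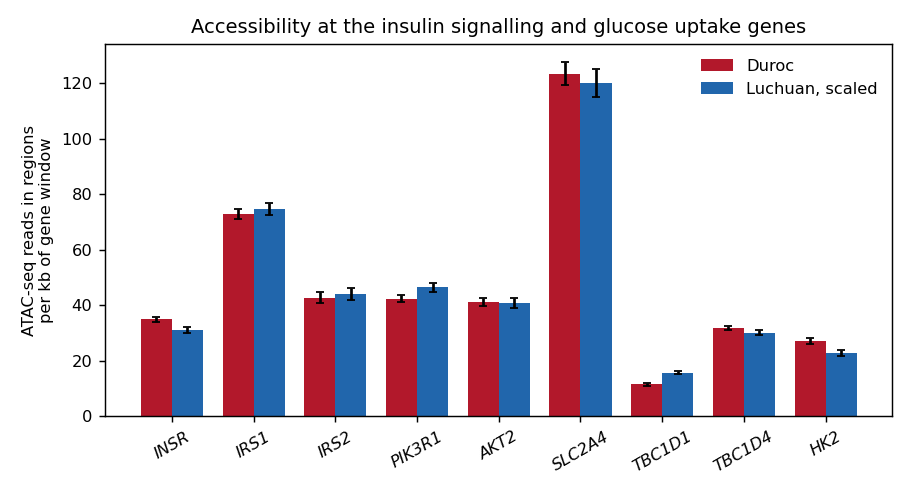
ATAC-seq reads within open regions per kb of gene window for Duroc (red) and Luchuan after scaling (blue), with exact 95% Poisson intervals for counting error. SLC2A4 stands highest near 120 in both breeds and TBC1D1 lowest, at 11.5 in Duroc and 15.8 in Luchuan.

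Libraries and tissue were checked on marker genes. At 8 muscle fiber genes the accessibility was 105 to 232 Duroc reads per kb, and their summed log2 ratio was -0.11 (-0.12 to -0.09). On the Duroc side were 7 of the 8, with creatine kinase (CKM) furthest, at -0.47. TTN, the gene above 0 at 0.03, held 50339 of the 98606 Duroc reads, and the median of the 8 was -0.24. Summed over a list, adipocyte markers had 23.4 Duroc and 26.0 scaled Luchuan reads per kb, endothelial markers 3.54 and 3.14, immune markers 11.5 and 11.3, fibroblast markers 6.57 and 6.71, satellite cell markers 40.9 and 37.4, and 4 liver genes 5.89 and 7.60. The liver genes stand for a tissue that should be absent. Their sum rested on APOA1 and SERPINA1, with 458 and 228 of 718 Duroc reads. TTR and ALB had 0.36 and 0.55 Duroc reads per kb. The liver list had a summed log2 ratio of 0.37 (0.21 to 0.52), with SERPINA1 at 0.88. Endothelial sums were below the liver sums and fibroblast sums near them. With so uneven a baseline, these sums do not show signal from those cells and cannot decide whether it was present. Among adipocyte markers, CIDEC and LIPE held 1568 and 2362 of the 4501 Duroc reads. FABP4 of adipocytes and LUM of fibroblasts had no region in either breed. Of the 6 adipocyte genes 5 had enough reads, and 4 of these were on the Luchuan side while LEP was at -0.94. Sums hid opposite members in other lists as well. Among endothelial genes TEK was at 0.78 and KDR at 0.73 but EMCN at -0.51, and the median of the 4 with enough reads was 0.30 although their sum leaned towards Duroc. Among immune genes CD68 held 2377 of the 3436 Duroc reads and was at -0.10. PTPRC, with 116 reads over both breeds, was at -1.07, while CSF1R was at 0.14 and CD163 at 0.18. The part of cell composition in the ratios below was not tested. In whole muscle, fewer cells of a type and less open chromatin per cell cannot be told apart. The ratio also moved with the level: in the lowest quartile of all genes by Duroc reads per kb the median log2 ratio was 0.076, and in the highest it was -0.067. This level is made of the Duroc reads, which are also the denominator of the ratio. Such sorting can by itself lower the ratio as the level rises, so neither the trend nor the quartile of a gene is independent of the ratio. TBC1D1 belongs to the second lowest quartile, where the median was 0.011 and 1.44% of genes had a ratio as high as TBC1D1 or higher.

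INSR, the receptor itself (gene ID 396755, chromosome 2, 71797209 to 71939923), had 28 regions, with 5693 Duroc and 3431 Luchuan reads. Its strongest region, the one with the most Duroc and scaled Luchuan reads together, at chr2:71871422-71872273 inside the gene, had 760 Duroc and 523 Luchuan reads, a log2 ratio of 0.02 (-0.14 to 0.18). The region across the lower-coordinate end of the gene, 1242 bases wide, had 717 and 464 reads and a ratio of -0.07 (-0.24 to 0.10). Neither of these wide regions differed between the breeds beyond counting error, and the lean of INSR towards Duroc came from the many smaller ones. In all, 19 of its 28 regions were lower in Luchuan. The intervals of 7 regions lay wholly below 0 and none lay above 0, while 15.7% of all regions of the table lay wholly below and 13.4% above. The summed ratio was -0.12 (-0.21 to -0.04) for the 14 regions less than 70 kb from the lower end and -0.22 (-0.30 to -0.13) for the 14 beyond, and 7 of the former and 12 of the latter were lower in Luchuan. The 70 kb limit was set with these values known.

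At INSR 2 of 28 regions, or 7.14%, were at least 2-fold higher in Duroc, a share near the 5.70% of all regions. The first, at chr2:71893943-71894211 within the gene, had 90 Duroc and 25 Luchuan reads, a ratio of -1.26 (-1.99 to -0.63). The second, at chr2:71940843-71941251 just beyond the upper end of the gene, had 76 and 25 reads and a ratio of -1.02 (-1.76 to -0.37). Both had been called as peaks in Duroc alone, from the same reads, so their class is not separate evidence.

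IRS1 (gene ID 100512686, chromosome 15, 128245846 to 128307321) and IRS2 (gene ID 110255858, chromosome 11, 76626158 to 76654639), the docking proteins, had sums that did not differ between breeds beyond counting error. IRS1 had 32 regions with 5940 Duroc and 4126 Luchuan reads, a log2 ratio of 0.04 (-0.02 to 0.09). IRS2 had 13 regions with 2073 and 1448 reads, a ratio of 0.04 (-0.05 to 0.14). Their strongest regions both lay just beyond the upper end of the gene and did not differ between breeds beyond counting error. That of IRS1, at chr15:128307717-128308615, had 991 Duroc and 698 Luchuan reads and a ratio of 0.06 (-0.09 to 0.20). That of IRS2, at chr11:76654662-76655602, had 720 and 478 reads and a ratio of -0.03 (-0.20 to 0.14).

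The docking protein genes differed in layout. Within 2 kb of the gene ends lay 75.9% of the reads of IRS2, the largest share of the 9 genes, and 26.9% of those of IRS1. IRS1 had a second wide region of 1027 bases at chr15:128238071-128239097, beyond the lower end, with 472 Duroc and 401 Luchuan reads. Its ratio of 0.33 (interval 0.13 to 0.52) lay above 0. No region of IRS1 was 2-fold different. IRS2 had 1 such region, with 17 Duroc and 24 Luchuan reads and a ratio of 1.02 (0.10 to 2.05), which is too few reads to fix its size.

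PIK3R1, the regulatory subunit of phosphoinositide 3-kinase (gene ID 100623707, chromosome 16, 46434757 to 46523626), had 32 regions with 4618 Duroc and 3425 Luchuan reads. Its log2 ratio was 0.13 (0.07 to 0.19), the second highest of the 9. In the gene body alone it was 0.07. With clean reads it was -0.07 and without scaling -0.43, so its sign depended on the scaling. The widest and most covered of all 227 regions spanned its lower-coordinate end, at chr16:46434010-46435315, with 1149 Duroc reads and 917 Luchuan reads. Scaled to 1353, the Luchuan count gave a ratio of 0.24 (0.11 to 0.36). The ratios were higher towards this end of the gene. All 16 regions less than 40 kb from the lower end, or beyond it, had ratios above 0, with a summed ratio of 0.30 (0.21 to 0.40), whereas 7 of the other 16 did, with a summed ratio of -0.02 (-0.11 to 0.07). Among all regions, 48.3% had a ratio above 0. With clean reads, 12 and 4 regions were above 0 and the summed ratios were 0.11 and -0.22, and without scaling 5 and 2 were, with -0.26 and -0.58. The 40 kb limit was set after the values had been seen.

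Regions beyond the lower end of PIK3R1 leaned the same way. In the 500 kb next to its window on that side, 51 regions had a median log2 ratio of 0.74 and a summed ratio of 0.46, and 88.2% of them were above 0. On the other side, 49 regions had a median of -0.02. A single PIK3R1 region was 2-fold different, at chr16:46452399-46452607 within the gene, with 17 Duroc and 34 Luchuan reads and a ratio of 1.51 (0.68 to 2.49).

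AKT2, the kinase that passes the signal to glucose transport (gene ID 100127478, chromosome 6, 48555785 to 48620472), had the ratio closest to 0 of the 9 genes. Its 18 regions held 3477 Duroc and 2340 Luchuan reads, a log2 ratio of -0.01 (-0.09 to 0.07). The strongest, at chr6:48605473-48606734 inside the gene, had 778 and 531 reads and a ratio of 0.01 (-0.15 to 0.17), and that across the upper end had 159 and 104 reads and a ratio of -0.05 (-0.42 to 0.31). For 17 of the 18 regions the interval included 0. Most of the open chromatin of AKT2 lay inside the gene, and 8.59% of its reads fell within 2 kb of an end, the smallest share of the 9. The windows of neighbouring genes also took in 8 of its regions.

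SLC2A4, the gene of the insulin-responsive glucose transporter GLUT4 (gene ID 396754, chromosome 12, 52628746 to 52634965), had the most uniform ratios. Its 9 regions held 3237 Duroc and 2134 Luchuan reads, a log2 ratio of -0.04 (-0.12 to 0.04), and single regions ran from -0.21 to 0.22. The strongest region, at chr12:52627450-52628638, lay wholly outside the gene beyond its lower end, across the nearest end of CLDN7, a tight junction gene, with 1132 Duroc and 664 Luchuan reads. Its ratio of -0.21 (-0.35 to -0.07) was the only one of the 9 whose interval did not include 0. Inside the gene, the region at chr12:52629095-52629558 had 438 and 299 reads and a ratio of 0.01. The gene is short and closely flanked by CLDN7 and YBX2, and all 9 regions also lay in the window of another gene, so none of these counts belongs to SLC2A4 alone. In the 500 kb on both sides of the window, 22.3% of 103 regions had a ratio above 0.

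TBC1D1, the Rab regulator shared by insulin and contraction (gene ID 100524447, chromosome 8, 29370344 to 29590574), was more open in Luchuan in most of its regions. Of its 29 regions 25, or 86.2%, had a log2 ratio above 0, beside 48.3% of all regions. With clean reads 23 were above 0, and without scaling 10. For 12 regions the interval lay wholly above 0 and for 1 below, while 13.4% of all regions lay above and 15.7% below. The difference was not confined to weak regions. The strongest, 1109 bases wide at chr8:29369880-29370988 across the lower-coordinate end, had 677 Duroc and 620 Luchuan reads, a ratio of 0.43 (0.27 to 0.59). The next strongest, at chr8:29414673-29415446, had 278 reads in each breed before scaling and a ratio of 0.56. Beyond the upper end, the region at chr8:29593591-29593984 had 192 and 197 reads and a ratio of 0.60. Without the strongest region the summed ratio of the gene was 0.47. The region whose interval lay below 0, at chr8:29464553-29464840 and 94.4 kb into the gene, had 68 Duroc and 25 Luchuan reads, a ratio of -0.86 (-1.61 to -0.20).

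Of the 29 TBC1D1 regions 5, or 17.2%, were at least 2-fold higher in Luchuan, beside 7.11% of all regions, and 2 of these had 50 reads or more. The region at chr8:29418598-29418952, 48.4 kb into the gene, had 66 Duroc and 99 Luchuan reads, a ratio of 1.13 (0.68 to 1.62). The region at chr8:29454373-29454772, 84.2 kb into the gene, had 65 and 90 reads and a ratio of 1.02 (0.55 to 1.51). Both are peaks common to the breeds. Of all regions with at least 50 reads, 2.40% were 2-fold higher in Luchuan. The other 3 had 25 to 31 reads over both breeds and had been called in Luchuan alone, from the same reads. Common peaks alone gave the same picture, since 16 of the 17 were above 0, with a median of 0.44. The 16 regions less than 100 kb from the lower end had a summed ratio of 0.43 and the 13 beyond it 0.53. In the 500 kb on each side of the window, the lower flank had a summed ratio of 0.15 over 31 regions and the upper flank 0.07 over 47, both smaller than that of the gene. The lower flank still leaned towards Luchuan, with a median of 0.23 and 74.2% of its regions above 0. In the upper flank these were 0.04 and 55.3%.

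TBC1D4, the other Rab regulator (gene ID 100523015, chromosome 11, 47543808 to 47760928), had the most regions of the 9, 49, and the widest spread. Its 7559 Duroc and 4849 Luchuan reads gave a log2 ratio of -0.08 (-0.13 to -0.03). Single regions ran from -2.02 to 0.98, and their standard deviation of 0.73 was the largest of the 9 genes. The ratio differed between the parts of the gene. Of the 24 regions less than 100 kb from the lower end, 21 had a ratio below 0, with a summed ratio of -0.40 (-0.48 to -0.32). In the upper part 18 of 25 regions had a ratio above 0, with a summed ratio of 0.16 (0.09 to 0.22). Common peaks alone gave -0.26 and 0.15. Of these, 11 of 13 were below 0 in the lower part and 9 of 14 above 0 in the upper. All 8 peaks called in Luchuan alone, from the same reads, lay in the upper part and were above 0. Over the whole gene, regions within 2 kb of an end had a summed ratio of 0.30 and the others -0.18. With clean reads the sums of the lower and upper parts were -0.60 and -0.04, and without scaling -0.96 and -0.41. The sign of the upper part thus depended on the scaling. A single factor moves both parts alike, so these scalings could not change which part had the lower ratio. The limit of 100 kb was chosen after the values had been seen, so the contrast is a description.

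The strongest region of TBC1D4, at chr11:47759911-47761053 across the upper end, had 828 Duroc and 700 Luchuan reads and a ratio of 0.32 (0.17 to 0.47), and its neighbour at chr11:47758917-47759792 had 452 and 423 reads and 0.46. The strongest in the lower part, at chr11:47601605-47602855, had 1025 Duroc and 511 Luchuan reads and a ratio of -0.44. These wide regions are common to both breeds, and they went opposite ways.

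TBC1D4 had 8 of the 12 regions that were at least 2-fold higher in Duroc. They made up 16.3% of its 49 regions, beside 5.70% of all regions. Of these, 7 lay within the first 64.3 kb of the gene and 1 just beyond its lower end, and none of the 25 regions of the upper part was 2-fold different. In the 500 kb next to the window on the lower side, 12 regions had a median ratio of 0.43 and a summed ratio of 0.16. On the upper side, 72 regions had a median of 0.01 and a summed ratio of -0.02. The largest difference among the 227 regions was at chr11:47599407-47599634, with 117 Duroc and 19 Luchuan reads, a ratio of -2.02 (-2.84 to -1.35). The one with the most reads of the 8, at chr11:47580859-47581307, had 139 and 31 reads and a ratio of -1.58 (-2.21 to -1.03). The region beyond the lower end, at chr11:47539205-47539487, had 88 and 26 reads and a ratio of -1.18. The other 5 had 43 to 56 Duroc and 9 to 18 Luchuan reads, with ratios from -1.69 to -1.05. All 8 had been called as peaks in Duroc alone, from the same reads, so their class is not separate evidence.

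**Figure D3:**
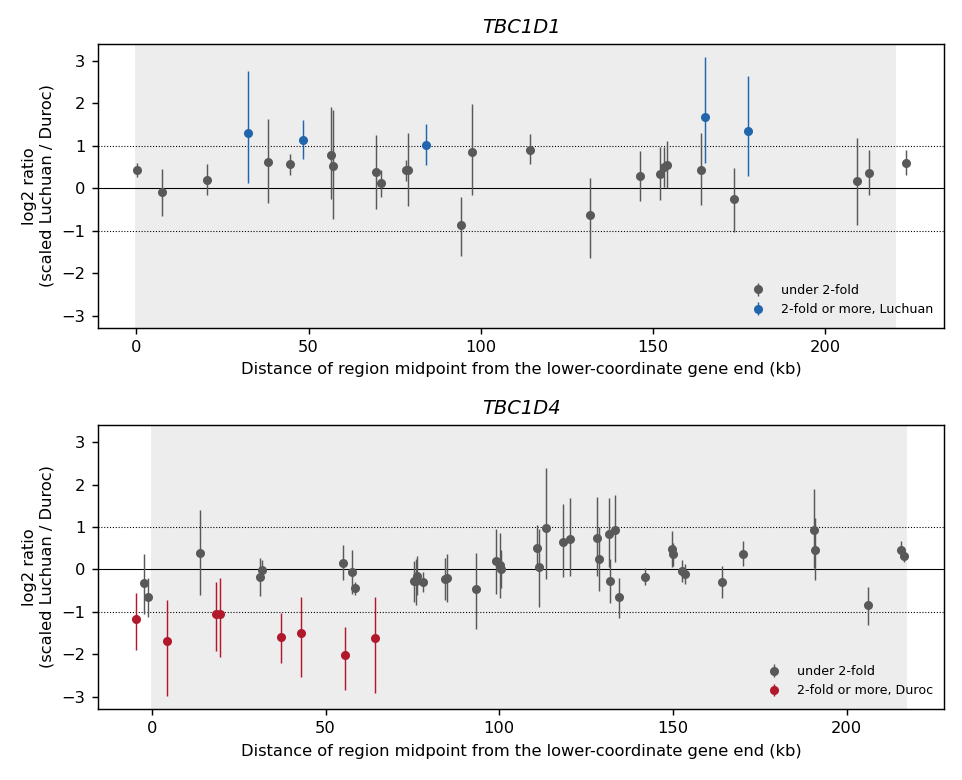
Log2 ratio of scaled Luchuan to Duroc reads of each region of TBC1D1 (top, 29 regions) and TBC1D4 (bottom, 49 regions) against its distance in kb from the gene end with the lower coordinate, with 95% intervals for counting error; grey marks the gene body and dotted lines a 2-fold difference. TBC1D1 lies above 0 in 25 regions along the gene, and the 8 regions of TBC1D4 past 2-fold in Duroc (red) lie between -4.46 and 64.3 kb.

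HK2, which phosphorylates the incoming glucose (gene ID 494561, chromosome 3, 68155656 to 68231187), had 17 regions with 2581 Duroc and 1478 Luchuan reads, the lowest log2 ratio of the 9. Its strongest region, just beyond the upper end at chr3:68231353-68232031, had 686 and 474 reads and did not differ beyond counting error (0.03, -0.14 to 0.20). Away from the gene ends the ratio was lower, at -0.37 over the regions more than 2 kb from both. Of the 17 regions 12 had a ratio below 0, and the interval lay wholly below 0 for 4 and above 0 for none. Beyond the lower end, a pair of neighbouring peaks were at least 2-fold higher in Duroc, which is 11.8% of the 17 regions beside 5.70% of all. They had been called in Duroc alone, from the same reads, so their class is not separate evidence. One, at chr3:68152253-68152872, had 126 Duroc and 29 Luchuan reads, a ratio of -1.54 (-2.19 to -0.97). The other had 37 and 8 reads and a ratio of -1.57. Within the gene, the region at chr3:68219577-68220032 had 179 Duroc and 61 Luchuan reads and stayed just under 2-fold, at -0.98. In the 500 kb beyond the lower side of the window, by contrast, 21 regions had a summed ratio of 0.23.

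Over the 227 regions together, a log2 ratio above 0 was found for 121, or 53.3%, beside 48.3% of all regions. The scaling centres common peaks on 0 and so largely sets this share. At least 2-fold higher in Luchuan were 7 regions, or 3.08%, beside 7.11% of all regions. In Duroc 12 regions, or 5.29%, were past 2-fold, beside 5.70% of all regions. With at least 50 reads, 3 of 205 regions were 2-fold higher in Luchuan, or 1.46%, and 11 in Duroc, or 5.37%, against 2.40% and 5.40% of such regions in the table. More regions were thus past 2-fold in Duroc than in Luchuan, and neither share was above that of all regions. With clean reads there were 17 in Duroc and 4 in Luchuan, or 7.49% and 1.76%, beside 8.74% and 4.93% of all regions. Without scaling there were 31 and 1, or 13.7% and 0.441%, beside 20.7% and 2.50%. The 19 regions fell on few genes, since TBC1D4 had 8 of the 12 in Duroc and TBC1D1 5 of the 7 in Luchuan. Of the 19, 2 were common peaks. Peaks called in both breeds made up 59.0% of the 227 regions and 49.1% of all regions, and the other regions were called in Duroc (57) or in Luchuan (36) alone.

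**Figure D4:**
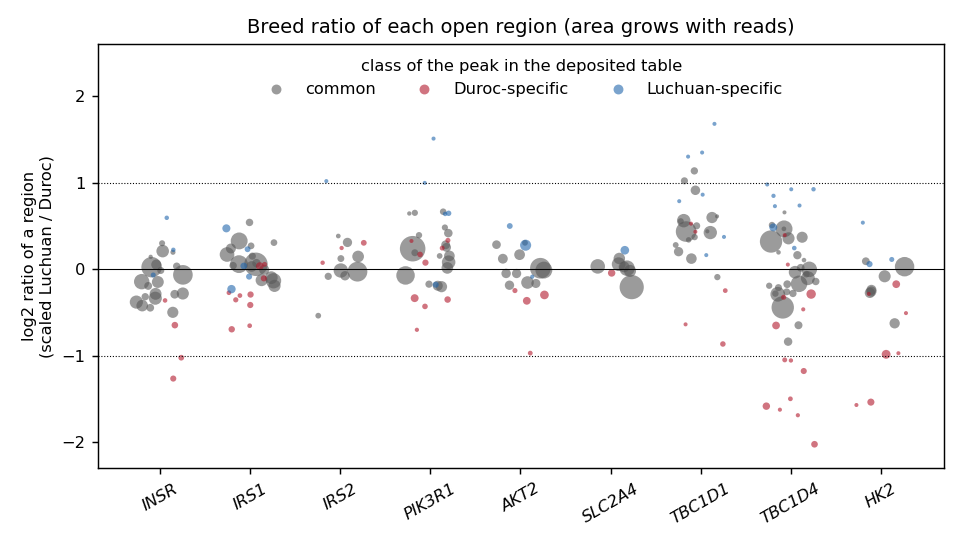
Log2 ratio of scaled Luchuan to Duroc reads of each of the 227 open regions, by gene; the area of a point grows with its reads from 50 upwards, colors give the class of the peak in the deposited table, and dotted lines mark a 2-fold difference. TBC1D1 lies mostly above 0, while TBC1D4 has 8 Duroc-specific regions below -1.

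The rest of the pathway was described on 64 further genes in 4 roles, of which 62 were found by symbol (AKT1 and PIK3R3 were not) and 61 had at least 100 reads. None of the 61 reached a log2 ratio of 0.5 in either direction, beside the 3.17% and 3.96% of all genes given above. Above 0 were 28 and below 0 were 33, with a median of -0.014. The examples that follow were chosen after their values had been seen.

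Among 12 receptor adaptors and inhibitors, with a median of -0.023, GRB14, which binds and inhibits the insulin receptor, was the furthest towards Luchuan with 460 Duroc and 430 Luchuan reads (0.46, interval 0.27 to 0.66). The suppressor of cytokine signalling SOCS3 was the furthest towards Duroc with 1689 and 937 reads (-0.29). Among 19 genes of PI3K and AKT signalling the median was 0.019. FOXO1, the transcription factor that AKT keeps out of the nucleus, was the highest with 4675 and 3917 reads (0.31, 0.24 to 0.37). PIK3CA, the catalytic partner of PIK3R1, was the lowest with 728 and 405 reads (-0.28).

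Among 18 transporters and proteins of vesicle traffic the median was -0.033 and 13 genes were below 0. The glucose transporter SLC2A3 was the highest, with 316 and 272 reads (0.34), and RAC1, a small GTPase needed for GLUT4 movement, the lowest, with 1253 and 750 reads (-0.18). Among 12 genes of glucose phosphorylation and glycogen synthesis the median was 0.044, and they held the widest range. The glycogen branching enzyme GBE1 had 2063 Duroc and 1863 Luchuan reads (0.41, 0.32 to 0.51), and UGP2, which makes the glucose donor for glycogen, had 3125 and 2555 (0.27). PGM1, phosphoglucomutase, was the lowest of the 61 genes, with 12032 and 6221 reads (-0.39, -0.43 to -0.35), and glycogen synthase GYS1 had 4297 and 2656 (-0.13). HK1, the hexokinase found in most tissues, had 920 and 661 reads and a ratio of 0.08 (-0.06 to 0.23), whose interval included 0.

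**Figure D5:**
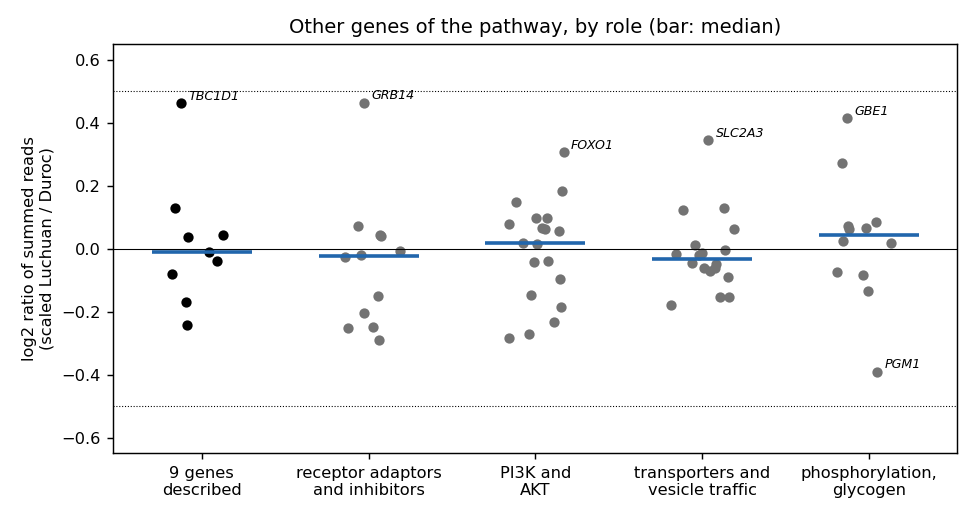
Log2 ratio of summed scaled Luchuan to Duroc reads for the 9 genes (black) and 61 further genes of the pathway in 4 roles (grey), with the median of each set as a bar and dotted lines at 0.5 and -0.5. All points lie within the dotted lines; TBC1D1 and GRB14 are the highest, both at 0.46, and PGM1 is the lowest at -0.39.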

How the data were processed

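ATAC-seq reads of longissimus dorsi muscle were filtered by the authors with Trimmomatic (version 0.36), aligned to Sscrofa11.1 with Bowtie2 and searched for peaks with MACS2. The table the authors deposited gives, for every peak interval, an unscaled count of reads in whole numbers for each breed. A column was assumed to combine all 3 animals of its breed. How they were combined, the counting tool and the removal of duplicate reads are not given in the sources used here. The reference assembly comes from a Duroc pig, and whether Luchuan reads aligned equally well was not tested. The deposited rescaled log2 fold change, mean signal and P-value were not used. RNA-seq was not analysed here.

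Starts were read as counted from 0 and are given from 1. Common intervals that overlapped or touched were joined into 1 region, represented by the longest. Gene positions came from RefSeq (Sscrofa11.1), without strand, exons or sequence, so gene ends replace start sites and no sequence is shown. Region ratios were computed with 1 added to each count. Thresholds were 1 on the log2 scale for regions and 0.5 for genes with at least 100 reads. The functions were tested on simulated data. Work was done in Python 3.11.15 with SciPy 1.17.1, pandas 2.3.3, NumPy 2.4.6 and, for plots, Matplotlib 3.10.9.

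All 9 genes were described, with the region of most reads, those at gene ends and those past 2-fold with at least 50 reads. Of further pathway genes, those past 0.5 were to be named. The members and lists were chosen with earlier results of these data known, and the additional examples, position limits and flanks after values had been seen.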

Additional observations from a re-analysis of the deposited data

How the results depend on the processing

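Scaling set the sign of most sums. A single factor for all regions shifts the genes nearly alike, so it says nothing about their order. Without scaling, the median over all genes moved to -0.58, that of the 9 genes to -0.57 and the ratio of TBC1D1 to -0.10. Then 7 of the 9 genes and 41 pathway genes were at -0.5 or less, beside 64.2% of all genes. In Luchuan 1 region was past 2-fold and in Duroc 31, or 0.441% and 13.7%, beside 2.50% and 20.7% of all regions. With the clean reads of the libraries, the median over all genes was -0.21 and TBC1D1 was at 0.27. Past 2-fold were 4 regions in Luchuan and 17 in Duroc, or 1.76% and 7.49%, beside 4.93% and 8.74% of all regions. At -0.5 or less was 1 pathway gene, and also 1 with 2 kb in place of 10 kb around genes, beside 10.2% and 4.39% of all genes. Relative to the median of all genes, TBC1D1 lay between 0.45 and 0.55 under all 12 alternatives and was the highest of the 9 in each. HK2 was the lowest in 10, and INSR with 2 kb around genes and with common regions only. No scaling, clean reads and the sum over all regions each apply a single factor. These alternatives fix the order and the distance from the median in advance and are no check of them. A limit of 50 reads left 3 regions past 2-fold in Luchuan and 11 in Duroc. A threshold of 1.5-fold gave 26 in Luchuan and 25 in Duroc, or 11.5% and 11.0%, beside 15.2% and 15.0% of all regions. A 3-fold threshold gave 1 and 3, or 0.441% and 1.32%, beside 2.10% and 1.55%. SLC2A4 had no region left without those of another gene's window. No paired analysis was possible because the table has 1 column per breed, and for the same reason no animal could be left out. The median region of the 9 genes had 94 Duroc and 61 Luchuan reads, and for 168 of the 227 the counting interval included 0.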
